A study of Drosophila melanogaster with 2 samples.

Results

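Binding of an eGFP-tagged Senseless-2 protein was examined at the gene that encodes it, at the gene of its paralog Senseless, and at a pair of genes upstream of the first. The 4 genes were sens-2, sens, nrv1 and nrv2, of 13968 protein-coding genes in the annotation, and they were selected on the peak positions and signals of these same data, of which earlier results were known. All counts below are therefore descriptions. Each gene was given a domain, its annotated body plus 2 kb upstream, and a peak was assigned to it when the peak summit lay in that domain. The 4 domains held 13 of the 2883 summits of the conservative list, the main list of peaks shared between replicates.

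The data came from 2 biological replicates of whole Drosophila melanogaster embryos, collected between 0 and 24 h and carrying the sens-2-GFP insertion. Chromatin was sheared by sonication to 200 to 800 bp and precipitated with an antibody against GFP, per the sample descriptions, although the antibody field of the labels names sens-2 itself. Both replicates came from 1 strain and formed 1 group, with no other genotype, stage or untagged embryo. The labels do not say whether the insertion adds a tagged copy of sens-2 or tags the resident one, and do not give the promoter that drives it. Whole embryos of all ages in this range mix cell types that express the protein with those that do not.

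The genes sens-2 and sens encode zinc-finger transcription factors of the Gfi family. Senseless is required for the formation of peripheral sensory organs, where it acts together with proneural proteins, and members of the family bind DNA with an AATC core. The genes nrv1 and nrv2 encode beta subunits of the sodium and potassium pump (Na,K-ATPase). Nrv2 is also needed for septate junctions, which seal neighbouring epithelial cells to each other and neighbouring glial cells to each other.

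All coordinates are on dm6. The gene sens-2 (FBgn0051632) is on the plus strand of 2L at 6821934 to 6838995, with annotated transcript starts at 6821934 and 6822317. The genes nrv2 (FBgn0015777, 2L, 6789770 to 6798862) and nrv1 (FBgn0015776, 2L, 6778555 to 6786861) are on the minus strand, with the start of nrv2 23.1 kb from that of sens-2 and the start of nrv1 2.91 kb from the 3′ end of nrv2. Other protein-coding genes, among them CG17377 and CG17375, lie between nrv2 and sens-2, and none of them had a conservative summit in its domain. The paralog sens (FBgn0002573) is on another chromosome, 3L, at 13396228 to 13401125 on the minus strand.

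The sequences under a selection of peaks at sens-2 are shown here, all read from the plus strand of the reference genome. Capitals mark AAATCA, or its reverse complement TGATTT, the hexamer that contains the family's core. The first is the peak at the upstream promoter, the second the strongest peak of the domain, in an intron, and the third a peak just outside the upstream edge of the domain. The last pair are the bases within 50 bp of the summits of the other intron peaks that hold the hexamer. Not shown are the peak at the second start, which overlaps an exon, the strong peak past the 3′ end, and the other intron peaks. None of those held the hexamer in the bases examined, so it is more frequent among the sequences shown than among all sens-2 peaks.
sens-2 promoter, chr2L:6821623-6821775 (+): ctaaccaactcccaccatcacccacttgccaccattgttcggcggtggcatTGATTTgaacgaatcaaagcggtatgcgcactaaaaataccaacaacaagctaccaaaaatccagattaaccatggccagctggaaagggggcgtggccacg
sens-2 intron, strongest peak, chr2L:6833752-6833958 (+): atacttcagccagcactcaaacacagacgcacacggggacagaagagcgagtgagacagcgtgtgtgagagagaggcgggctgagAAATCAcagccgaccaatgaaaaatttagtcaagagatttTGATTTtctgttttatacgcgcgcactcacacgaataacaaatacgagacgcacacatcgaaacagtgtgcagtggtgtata
upstream of the domain, chr2L:6819788-6819916 (+): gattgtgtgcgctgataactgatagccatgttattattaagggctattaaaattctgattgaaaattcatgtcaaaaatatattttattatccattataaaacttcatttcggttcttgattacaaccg
sens-2 intron, chr2L:6826151-6826251 (+): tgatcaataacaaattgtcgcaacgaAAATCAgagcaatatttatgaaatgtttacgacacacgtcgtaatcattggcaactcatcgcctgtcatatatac
sens-2 intron, chr2L:6827737-6827837 (+): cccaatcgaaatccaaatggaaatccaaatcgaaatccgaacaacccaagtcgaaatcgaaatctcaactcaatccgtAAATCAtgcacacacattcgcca

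The sens-2 domain held 8 summits in the conservative list, nrv1 held 4, nrv2 held 1 and sens held 0. Over all protein-coding genes, 17.9% had at least 1 summit in their domain. Only 6 genes (0.0430%) had 8 or more summits and 5 of them had more than sens-2, but among these 6 no other gene had a domain as short as the 19.1 kb of sens-2. That is 0.420 summits per kb at sens-2, 0.388 at nrv1 and 0.0901 at nrv2. Of all genes, 88 had at least as many summits as nrv1.

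The count at sens-2 was also high in each replicate's own thresholded list. Replicate 1 had 6 summits there, where 13.5% of all genes had at least 1, and replicate 2 had 6, where 11.9% did. At least 6 summits were found at 6 genes (0.0430%) in replicate 1 and at 3 genes (0.0215%) in replicate 2. The nrv1 domain had 3 summits in replicate 1 and 1 in replicate 2, and nrv2 had 1 in replicate 1 and 0 in replicate 2. The other thresholded list of the series, made from both replicates, put 9 summits at sens-2, 3 at nrv1, 1 at nrv2 and 0 at sens, with 19.1% of all genes holding at least 1. At sens-2 the 2 lists shared 6 peaks. The other list alone held peaks of signal 55.6, 47.1 and 46.6, within the first part of the gene, and it lacked the conservative peaks of signal 60.8 and 52.2. Which weak peaks pass therefore differed between the 2 lists, while every sens-2 peak with a signal of 65.3 or more was in both.

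**Figure D1:**
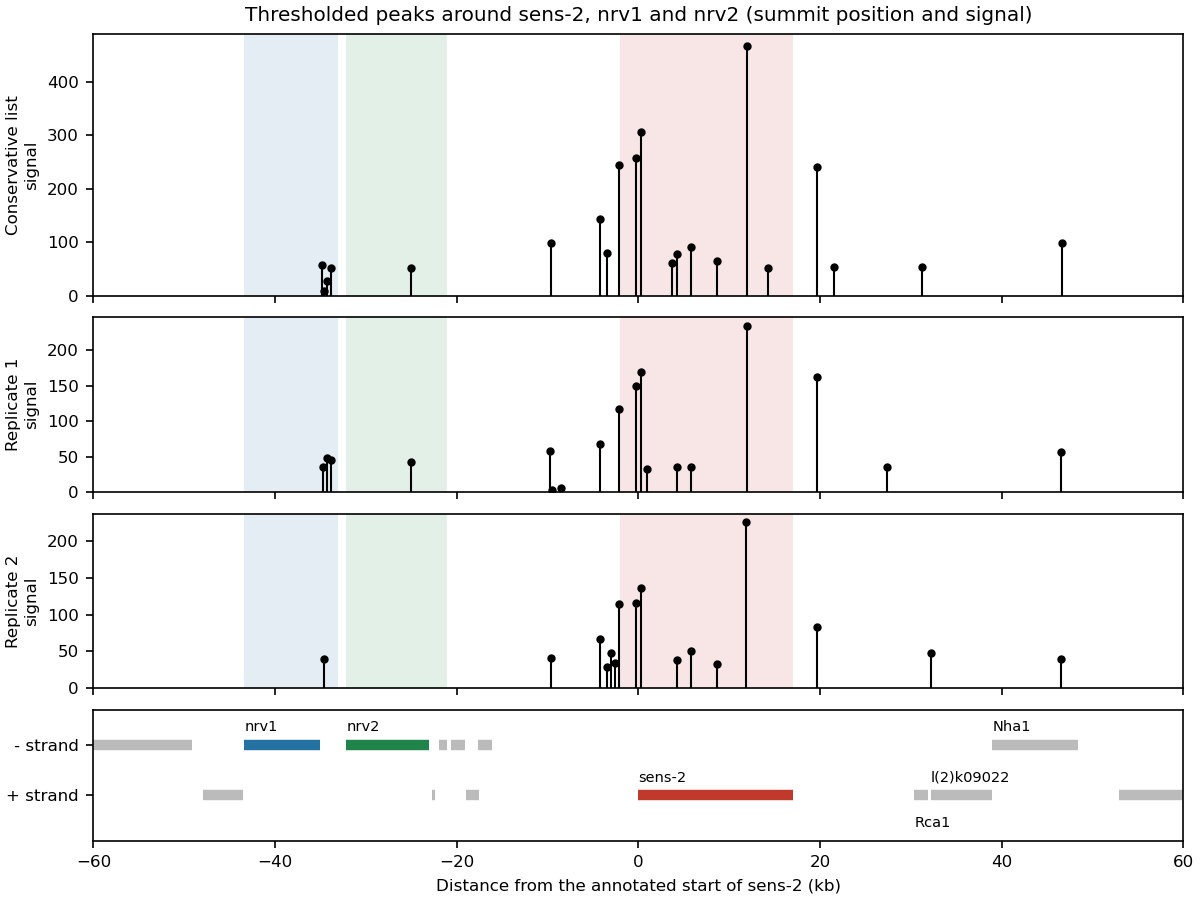
Summits (points) and signal (height, on each list's own scale) of thresholded peaks against the distance in kb from the annotated start of sens-2, in the conservative list and in each replicate's own list. Shaded bands are the domains of nrv1 (blue), nrv2 (green) and sens-2 (red), and bars below are protein-coding genes by strand. The highest peak of each panel, with signals of 466, 235 and 226, is the same intron peak of sens-2.

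Signal is the authors' enrichment value for a peak on the scale of its own list, so values were ranked within a list only. The strongest member peak was in an intron of sens-2, with its summit at 6833870, +11553 bp from the nearest transcript start. Its signal was 466 in the conservative list, rank 34 of 2883, which puts it in the top 1.18%. It measured 235 in replicate 1 (rank 55 of 1960) and 226 in replicate 2 (rank 19 of 1636), and the replicate summits lay 27 bp apart.

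Both annotated starts of sens-2 carried a strong peak. The peak before the first start had its summit at 6821687, −247 bp, with a signal of 257 (rank 139), and of 150 in replicate 1 and 116 in replicate 2. The peak before the second start had its summit at 6822244, −73 bp from that start and inside the 5′ untranslated exon of the longer transcript, with a signal of 305 (rank 94), and of 169 in replicate 1 and 136 in replicate 2. These 3 peaks were thresholded in both replicates and stood apart from the other 5, which had signals of 52.2 to 90.6 in the conservative list.

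The weaker 5 peaks were all in introns. The summit at 6827787 had a signal of 90.6, and of 35.3 in replicate 1 and 50.4 in replicate 2. The summit at 6826201 had 77.6, and 35.8 in replicate 1 and 38.7 in replicate 2. Both were thresholded in each replicate, at ranks 1853 and 1842 of 1960 in replicate 1 and 692 and 1100 of 1636 in replicate 2. The summit at 6830552 had 65.3 and was thresholded in replicate 2 (33.6) but present only in the ranked list of replicate 1 (27.9), the ranked list being the longer list before the threshold. The summits at 6825593 (60.8) and 6836183 (52.2) were thresholded in neither replicate alone: their ranked signals were 32.2 and 31.1 in replicate 1 and 23.7 and 24.2 in replicate 2. Of the 8 sens-2 peaks, 2 were thus thresholded in neither replicate and 5 in both, against 30.1% and 40.5% of all conservative peaks. The weaker 5 intron peaks each had the full width of 296 bp, as 88.5% of the list did. Peaks of full width have the summit at their centre. Whether those positions are measured maxima or only nominal cannot be told, as the peak caller is not given.

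The nrv1 summits were all upstream of the gene, between it and nrv2, with 0 in its body. They lay at −294, −501, −786 and −1238 bp from the nrv1 start, with signals of 58.5, 9.32, 28.3 and 52.8. The peaks at −294 and −501 bp overlapped by 89 bp and had the same nearest peaks, of 35.7 in replicate 1 and 40.3 in replicate 2, and the peak at −501 bp also overlapped the next replicate 1 peak by 18 bp. The peak at −786 bp overlapped the second by 11 bp, and had a signal of 47.4 in replicate 1 and no overlapping ranked peak in replicate 2. The peak at −1238 bp had 45.7 in replicate 1 and 22.2, below the threshold, in replicate 2. The pooled signals of 9.32 and 28.3 were below those of the replicate peaks they matched, unlike at the other member peaks, and all 4 had the highest possible score of 1000. Every nrv1 signal was under the median of the conservative list, 78.6.

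The gene nrv2 had its 1 summit at 6796896, −113 bp from an internal transcript start and within the gene body. Its signal was 51.8 in the conservative list and 42.7 in replicate 1. In replicate 2 it was in the ranked list only, at 22.0. The nrv2 peak and 3 of the 4 nrv1 peaks thus ranked from 2561 to 2841 of 2883, and the fourth ranked 2274, whereas the 8 sens-2 peaks ranked from 34 to 2590.

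The paralog sens had 0 summits in any of the 4 thresholded lists. It had 7 ranked peaks in the series list that compared the replicates, with signals of 15.8 to 32.6, and the highest score was 181, where 830 was the lowest score of a thresholded peak. The score falls as the irreproducible discovery rate (IDR) rises. A score of 181 is an IDR of 0.367, and 830 is 0.0100. Replicate 1 had 8 ranked peaks there, up to a signal of 25.4, and replicate 2 had 4, up to 17.0. The nearest conservative summit was 47.2 kb away, at the promoter of JMJD7, where replicate 1 had a signal of 81.0 and replicate 2 of 44.3. Binding at sens was thus not detectable at the thresholds of these lists. The ranked signals at sens overlapped the lower ones at sens-2, nrv1 and nrv2.

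**Figure D2:**
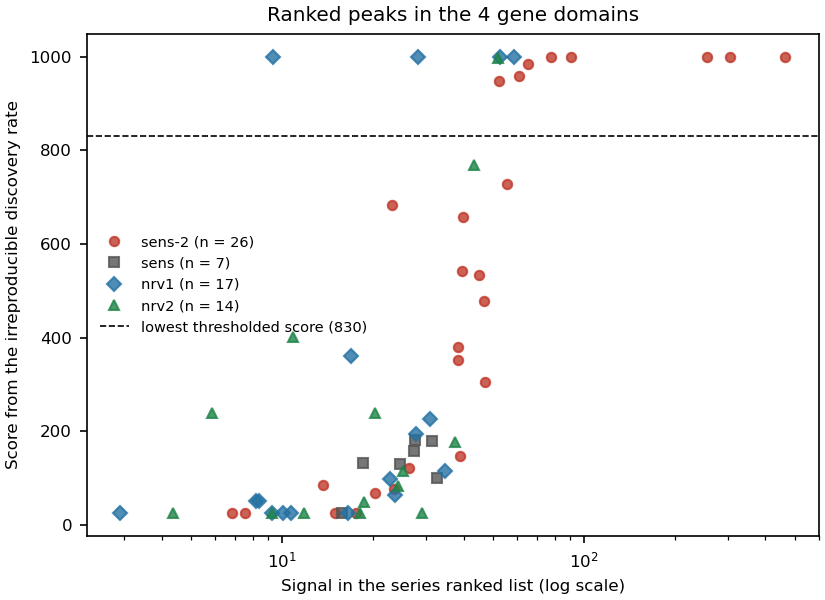
Signal (log scale) against score for every ranked peak in the 4 domains, from the series list that compared the replicates; the dashed line is the lowest thresholded score, 830. The 8 sens-2, 4 nrv1 and 1 nrv2 peaks above the line are those of the conservative list, and the 7 sens peaks reach a score of 181.

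Peak by peak, the replicates shared most of the sens-2 peaks. Of the 6 thresholded peaks of replicate 1 in the domain, 5 overlapped a thresholded peak of replicate 2, and 5 of the 6 of replicate 2 overlapped one of replicate 1. That is 83.3% each way (exact Clopper-Pearson 95% interval 35.9 to 99.6%), against 59.5% of all replicate 1 peaks and 71.0% of all replicate 2 peaks. With 6 peaks a side the interval includes both of the overall shares. It treats neighbouring peaks of 1 gene as independent, and both directions count the same 5 pairs, so it tests nothing. The overall shares cover peaks of any strength and were not matched to the signals at sens-2. The summits of the 5 shared pairs lay 6 to 39 bp apart, with a median of 24.0 bp. The pairs 24 and 39 bp apart are peaks of full width, with the summit at the centre.

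The peak of replicate 1 without a partner was in the coding sequence, with its summit at 6822871 and a signal of 33.2, and replicate 2 had a ranked peak of 14.5 there. The peak of replicate 2 without a partner was the intron peak at 6830555, with 33.6, against a ranked 27.9 in replicate 1. Every thresholded sens-2 peak thus had a ranked peak in the other replicate, as did 98.2% of all replicate 1 peaks and 96.1% of all replicate 2 peaks. At nrv1, 1 of 3 replicate 1 peaks and 1 of 1 replicate 2 peak were shared, and at nrv2 0 of 1 in replicate 1. With 50 kb added on each side of the sens-2 domain, 12 of 18 replicate 1 peaks and 11 of 16 replicate 2 peaks were shared.

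**Figure D3:**
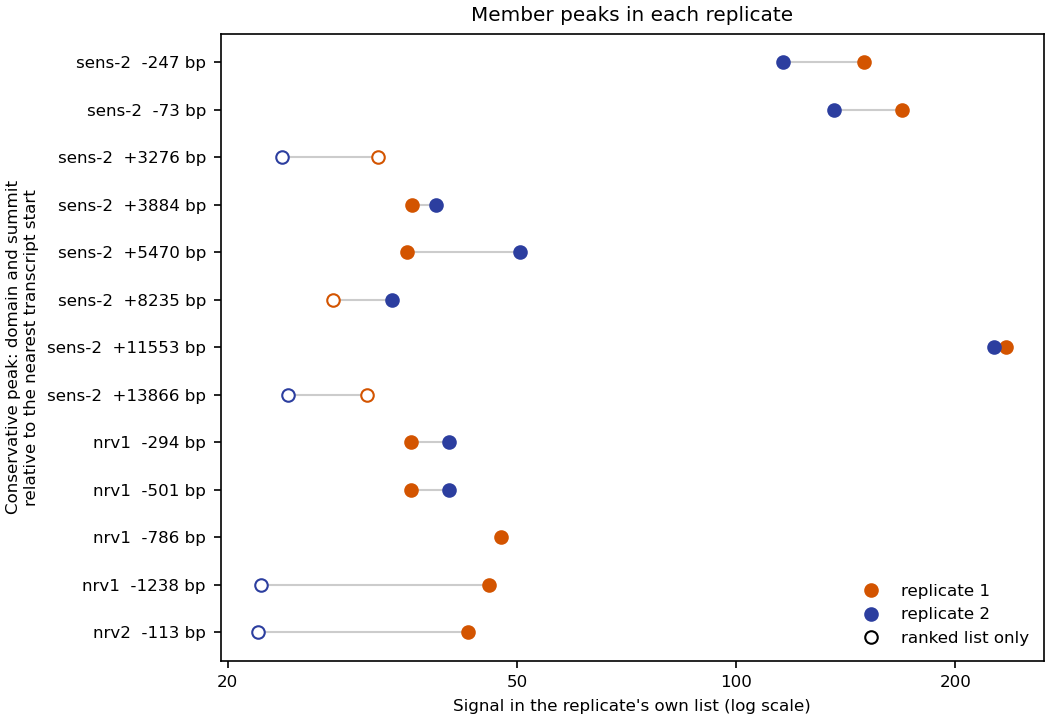
Signal (log scale) of each conservative member peak in the own list of replicate 1 (orange) and replicate 2 (blue), by the position of its summit from the nearest transcript start; open points were ranked but below the threshold of that replicate. The 3 strongest sens-2 peaks stand at 116 or more in both replicates, and the other members lie between 22.0 and 50.4.

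The relative height of the replicates differed at sens-2 from the list as a whole. The 8 sens-2 peaks had ratios of replicate 1 to replicate 2 signal of 0.701 to 1.36, with a median of 1.14. The 2851 conservative peaks with a peak in both replicates had a median ratio of 1.41, with quartiles of 1.13 and 1.76, and all 8 sens-2 peaks were below that median. By class, the 6 intron peaks had a median of 0.983, against 1.39 for all 1091 intron peaks, and the 2 promoter peaks had 1.30 and 1.25, against 1.43 for all 1256 promoter peaks. At nrv1 the ratio was 0.886 for the overlapping pair and 2.06 for the peak at −1238 bp, and nrv2 had 1.94.

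Among peaks with a signal of 200 or more, the ratios of the strong sens-2 peaks were also low. The weaker sens-2 intron peaks were not set beside peaks of like strength. The intron peak of 466 had a ratio of 1.04, and only 13 of the 258 peaks with a signal of 200 or more had a lower one. Of those 258, 50 had a lower ratio than the first promoter peak, of 1.30, and 35 had a lower ratio than the second, of 1.25. Their median was 1.60, with quartiles of 1.37 and 1.81. These classes were chosen after the values were seen, the peaks are neighbours on 1 chromosome, and with 1 value per replicate no test of the ratio was made. Signals of the replicates' lists are not scaled to each other, so a ratio is read only against the ratios of other peaks.

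**Figure D4:**
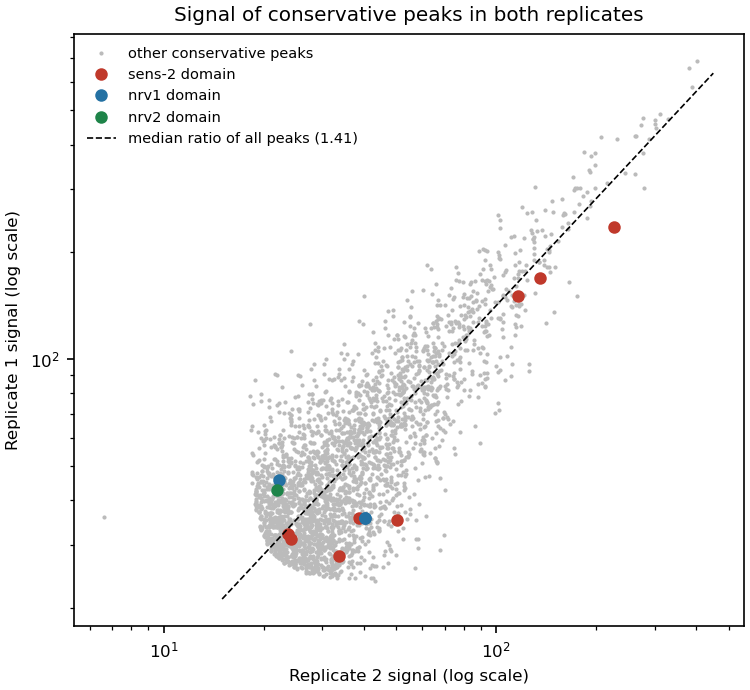
Replicate 1 signal against replicate 2 signal (both log scales) for conservative peaks with a peak in both replicates, with the members coloured; the dashed line is the median ratio of all peaks, 1.41. All 8 sens-2 peaks lie below the line, and the nrv2 peak and the nrv1 peak at −1238 bp lie above it.

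Several peaks lay just beyond the edges of the sens-2 domain. The closest, at 6819788 to 6819916, had a signal of 244 (rank 165) and its summit 74 bp outside the upstream edge. It measured 117 in replicate 1 and 114 in replicate 2, a ratio of 1.02, close to that of the strong intron peak. The first summit inside that edge was the promoter peak at 6821687, 1.75 kb in. Further upstream were peaks of 80.4 and 144, 1.44 and 2.24 kb outside. On the downstream side the nearest peaks were one of 52.2, 2.81 kb inside the 3′ end, and one of 241 (rank 169), 2.58 kb past it at 6841475 to 6841617. That last peak measured 162 in replicate 1 and 83.7 in replicate 2, a ratio of 1.94. With 5 kb upstream in place of 2 kb, sens-2 held 11 summits, and the counts of nrv1, nrv2 and sens did not change. How the wider domain changes the counts of all genes was not computed.

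Of 11 further protein-coding genes whose domain came within 50 kb of that of sens-2, 3 had a summit (27.3%, against 17.9% of all genes). Nha1, which encodes a sodium and proton exchanger, had one of signal 99.1, and Rca1, a cell-cycle regulator, and l(2)k09022 shared one of 53.3. The shared peak was thresholded in neither replicate alone. A separate peak of 47.7 at the promoter of l(2)k09022 was thresholded in replicate 2 only and was not in the conservative list. With the genes within 50 kb of nrv1 and nrv2 added, 3 of 18 had a summit (16.7%). These counts leave out non-coding genes, such as lncRNA:CR44081 between nrv2 and sens-2. Its promoter held a conservative peak of 99.1, which measured 57.9 in replicate 1 and 40.9 in replicate 2.

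Ranked peaks outside the conservative list also had higher signals around sens-2. Those that overlap no conservative peak had a median signal of 28.2 over the 66 in a window of 60 kb around the gene's middle, set beside 16.1 in the median window of the genome, a ratio of 1.75. None of 2218 such windows with at least 5 peaks was as high. Without thresholded peaks of any list the ratio was 1.63. The other series ranked list gave a ratio of 1.64, with 2 of 2225 windows as high. In the replicates' own lists the ratios were 1.39 (9 of 2197 windows as high) in replicate 1 and 1.52 (3 of 2175) in replicate 2. Only conservative peaks were left out in these lists and in the other series list. Peaks that passed the threshold of one of those lists alone therefore remained in its windows. The same ratios at sens were 1.03 in the series list, 0.887 in replicate 1 and 1.10 in replicate 2.

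In 20 kb windows of the series list, where that of sens-2 stands apart and those of nrv1 and nrv2 overlap by 8.39 kb, sens-2 had a ratio of 2.38, nrv1 1.10, nrv2 1.05 and sens 1.09. The value for sens-2 was 1.55 in the other series ranked list, where 88 of 6359 windows (1.38%) were as high and where nrv1 had 1.19, nrv2 1.13 and sens 1.16. In replicate 1 sens-2 had 1.44, with 2.00% of windows as high, nrv1 1.24, nrv2 1.42 and sens 0.974, so that sens-2 and nrv2 differed little there. In replicate 2 the windows as high as that of sens-2 were 1.17%, and nrv1 had 1.33, nrv2 1.32 and sens 1.16. By distance from the middle of the gene in bins of 10 kb, the ratio was 1.71, 2.13 and 2.40 from −20 to 0 kb, and 1.47, 2.49 and 1.34 from +10 to +30 kb. In this list it was 1.05 at −30 kb and 0.911 at +40 kb, but 1.34 and 1.39 at −90 and −100 kb. The replicates' own lists did not show the same edge: at −50, −40 and −30 kb the ratios were 1.31, 1.43 and 1.36 in replicate 1 and 1.36, 1.28 and 1.38 in replicate 2. The highest bin of replicate 1 was at +80 kb (1.56), above the 1.48 at the gene. The series bins from −20 to +30 kb held 8 to 14 of these peaks each, so single bins are imprecise, and in replicate 1 the bin at −10 kb was at 0.916. An extra copy of the region carried by the insertion, broad binding, and enrichment of the region without binding cannot be told apart here, since no input library, untagged embryo or read depth was analysed.

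**Figure D5:**
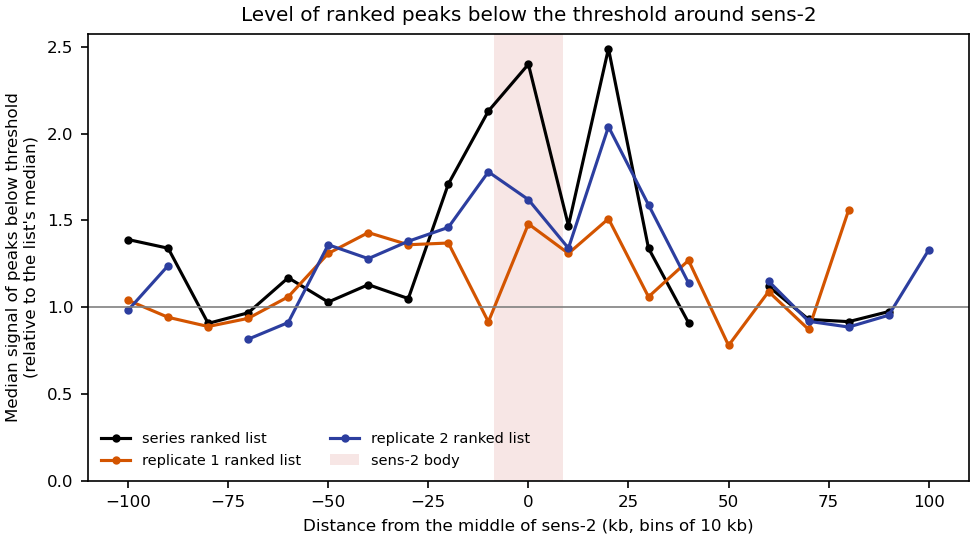
Median signal of ranked peaks that overlap no conservative peak, relative to the median of all such peaks in the same list, in bins of 10 kb from the middle of sens-2 (shaded: the gene body); bins with under 5 peaks are left out. The series list (black) reaches 2.40 at the gene and 2.49 at +20 kb, and is at 1.05 at −30 kb and 0.911 at +40 kb, whereas both replicates are still at 1.36 or more at −30 kb.

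In sequence, the hexamer AAATCA, on either strand, was within 50 bp of the summit at 4 of the 13 member summits, against 17.9% of all 2883 summits and 578 of 5766 flanking windows of the same width 300 bp away. All 4 were at sens-2, among its 8 summits, and the 5 nrv1 and nrv2 summits had 0. Among them was the strongest peak, in which 1 match was centred 9 bp to the right of the summit and the other at −31 bp. A window of the length of that peak, 207 bp, held at least 1 match at 29.3% of summits. The promoter peak shown above had its match at −11 bp. The summits at 6826201 and 6827787 had theirs at −22 and 30 bp. For those last peaks, of full width, the summit is the centre of the peak and may be nominal. The peak at the second start had no match within 50 bp, and the peak just outside the domain and the one past its 3′ end had none in their whole length.

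The window at 6827787 was built of repeats: AAATC occurred 7 times on the plus strand within 50 bp of the summit. No other of the 2883 windows had as many on that strand, and the reverse complement was not counted. This was noticed after the sequence was read. Of the other motifs counted on either strand, the E-box CANNTG was at 8 of 13 member summits (36.6% of all summits and 41.9% of flanking windows), GAGAG at 2 (11.7%), TAATTA at 1 (8.53%), and GATAAG and TATCGATA at 0 (7.84% and 1.25%). The E-box count depended on the window: within 25 bp of the summit it was 2 of 13 (19.3% of all summits), and within 100 bp it was 9 of 13 (61.5%). The G and C content of member windows had a median of 44.6% and ran from 25.7 to 66.3%, against a median of 35.6% at all summits.

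The genes that work with these factors and pumps were counted from a pair of lists. Of 13 proneural and sensory organ precursor genes, 5 had a conservative summit (38.5%, against 17.9% of all genes). In replicate 1 it was 2 of 13 (15.4%, against 13.5% of all genes) and in replicate 2 it was 4 of 13 (30.8%, against 11.9%). Among them, chn, a zinc-finger gene of sensory organ development, had 5 summits, the strongest of 194. The gene neur, which encodes a ubiquitin ligase of the Notch pathway, had one of 139 (72.4 in replicate 1 and 62.4 in replicate 2). The gene emc, which encodes an inhibitor of proneural proteins, had 95.2, phyl, an adaptor for protein degradation, 89.7, and da, the common partner of proneural proteins, 55.6. In the replicates' own thresholded lists, emc and phyl had a summit in replicate 2 only and da in neither. The proneural genes ac, sc, l(1)sc, ato and amos themselves had 0, as sens did. Each of these 5 proneural genes has a shorter annotated body than any gene of the list with a summit. No count or share was adjusted for domain length.

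Of 19 matched genes of the Na,K-ATPase and septate junctions, 5 had a conservative summit, 26.3% against 17.9% of all genes. In replicate 1 it was 3 of 19 (15.8%, against 13.5% of all genes) and in replicate 2 it was 1 of 19 (5.26%, against 11.9%). Those of replicate 1 were bou, Mcr and Nrx-IV, and Nrx-IV had 0 conservative summits. That of replicate 2 was Atpalpha, so cora and Nrg had a summit in neither replicate's own thresholded list. Atpalpha, the catalytic subunit that pairs with Nrv1 and Nrv2, had one of 67.8. The septate junction genes bou, cora, Mcr and Nrg had one each, of 78.9, 67.3, 54.7 and 49.9. The third beta subunit nrv3, had 0. The median gene of either list had 0 summits, as did the median of all genes. The shares of this list were not adjusted for domain length either.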

How the data were processed

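Peak lists on dm6 from 2 biological replicates were analysed. The text files that accompany the samples describe 8 lists: for each replicate, 1 ranked and 1 thresholded list from its own alignments, and for the series 2 ranked and 2 thresholded lists from both replicates. Aligner and peak caller: not given in the sources used here. Each peak carries a signal, deposited on its list's own scale, and a score that the authors derived from the IDR and limited to 1000. In ranked lists the authors added −log10 of the global IDR. Read depth is unknown, so intervals cover counting of peaks only. The series ranked lists hold 16 columns of replicate values that do not name the replicate, and these were not used.

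Summits and edges were made 1-based. Peaks on unplaced scaffolds (16 of 2899 in the conservative list) were left out. Genes came from Ensembl release 115 (BDGP 6.54) without pseudogenes and transposable elements, and sequence from the RefSeq genome of the same assembly; no peak ended past its chromosome. A promoter lay within 500 bp of a transcript start, and non-coding exons were treated as introns. Peaks matched between lists when they shared at least 1 bp. The signal of a conservative peak in a replicate was that of its overlapping peak in that replicate's lists. Windows tiled the genome. The annotated symbol of h is hry, and CG3701 matched 2 current genes and was left out. Named genes were the 4 members and each listed gene or neighbour with a summit; single list members at 0 were named after their values were seen. Members, lists and classes of peaks were chosen with earlier results of these data known, so no test was made. Counting and motif functions were tested on simulated data. Alternatives were other lists, domains, overlap rules and windows. Python 3.11.15, numpy 2.4.6, pandas 2.3.3, scipy 1.17.1 and matplotlib 3.10.9 were used.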

Additional observations from a re-analysis of the deposited data

How the results depend on the processing

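Of 40 alternatives, 26 were classed as near the reported value and 14 as moved. The tolerance was wider for counts than for the local level. At sens-2, 11 summits against 8 were classed as near, and a level of 1.64 against 1.75 as moved. Those classed as near include all alternatives for sens, each at 0. The tally is therefore no measure of stability. With peaks at or above the list's median signal alone, sens-2 held 4 summits, nrv1 0 and nrv2 0. With the gene body alone, nrv1 held 0. The share of all genes with a summit was not taken under either rule. With 1 replicate's own list at a time, nrv1 held 1 to 3 summits and nrv2 0 to 1, while sens-2 held 6 in either and sens 0. Agreement at sens-2 was 100% when the other replicate's ranked list was searched, and 83.3% with each other overlap rule. The local level at sens-2 was 2.38 in a 20 kb window, 1.42 in a 100 kb window, 1.64 in the other series ranked list, 1.63 without thresholded peaks of any list, and 1.39 to 1.52 in single replicates. AAATCA was at 7 of 13 member summits within 100 bp, where 28.7% of all summits had it. Within 25 bp it was at 3 of 13, where 9.78% of all summits had it. The cause of these shifts was not tested, and the alternatives differ from the main setting in the peaks, domains or windows that they use. No paired analysis was possible because the 2 samples form 1 group. With 2 replicates and no read depth, the spread of a single peak's signal cannot be estimated.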
